A study of Mus musculus with 145 samples.

Results

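The 36 interferon stimulated genes described here are a set of named mouse genes whose transcripts are raised by interferon signalling. They were found by symbol among the 55416 gene identifiers of the deposited count table, and each of the 36 matched a single identifier. All 36 also passed the filter on low counts that left 18677 genes for testing. Dorsal mouse skin was taken from animals exposed to the light of a tanning canopy with 8 fluorescent lamps, whose output was 96.4% ultraviolet A and 3.6% ultraviolet B. Sham-handled control animals (0 mJ/cm2) were kept beside animals given 5, 10, 20 or 40 mJ/cm2, and each dose had a group at 0, 6, 24, 48, 72 and 96 h. That gives 30 groups of animals and 145 poly(A) RNA libraries, with 5 animals in 25 groups and 4 animals in the other 5 (20 mJ/cm2 at 48 h and the 4 irradiated groups at 96 h). The labels state no allele and no drug for any group, and the sources used here give no strain, sex or age. Every dose group was compared with the sham group of the same time.

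Interferons are secreted signals that bind paired receptors on the cell surface, which activate Janus kinases and, through them, transcription factors. Type I and type III interferons act through the interferon-stimulated response element, and type II interferon acts through the gamma-activated sequence. The genes switched on in this way encode factors that block viral replication, sense foreign nucleic acid, process antigen or attract lymphocytes. Keratinocytes, infiltrating myeloid cells and plasmacytoid dendritic cells of the skin can all take part in such a response.

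The promoter letters that this pathway reads are shown first, because the response element was frequent among these genes. RefSeq promoters (GRCm38.p6) were at hand for 27 of the 36 genes, and the 250 bases before the transcription start were searched on both strands for the response element GAAANNGAAA (TTTCNNTTTC on the other strand) and for the gamma-activated sequence TTCNNNGAA, which reads the same on both strands. At least 1 response element was found for 14 of the 27 genes (51.9%), against 2.98% of 32851 promoters of the same length. The gamma-activated sequence was found for 4 of the 27 (14.8%), against 7.02% of all promoters. The genes were listed for being raised by interferon, which acts through these motifs, so the shares say nothing about the exposure. Genes with several promoter entries were counted as holding a motif if any entry did, while the shares over all promoters count each entry alone. The last 120 bases before the start are given below for 3 genes that rose at 40 mJ/cm2 and 48 h (Isg15, Oas3 and Oas1a) and for Ifit1, which did not pass the test there. Each reads from 5′ to 3′ on the strand of its gene, with every motif match in capitals.
Isg15, chr4:156200819-156200938, minus strand: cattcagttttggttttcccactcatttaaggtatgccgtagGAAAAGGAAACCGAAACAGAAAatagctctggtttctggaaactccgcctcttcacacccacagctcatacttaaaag
Oas3, chr5:120777660-120777779, minus strand: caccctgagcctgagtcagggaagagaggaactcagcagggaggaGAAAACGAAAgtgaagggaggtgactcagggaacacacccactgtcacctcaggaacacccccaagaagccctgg
Oas1a, chr5:120907526-120907645, minus strand: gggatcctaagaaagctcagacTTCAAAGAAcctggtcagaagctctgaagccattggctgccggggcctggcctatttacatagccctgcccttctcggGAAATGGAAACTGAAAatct
Ifit1, chr19:34640769-34640888, plus strand: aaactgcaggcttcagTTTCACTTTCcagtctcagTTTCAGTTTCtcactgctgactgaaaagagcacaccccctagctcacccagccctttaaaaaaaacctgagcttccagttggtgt

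Isg15 holds 3 response element matches that overlap one another, Oas1a holds 2 that overlap and 1 gamma-activated sequence, Oas3 holds 1, and Ifit1 holds 2 that lie apart on the other strand. Of the 5 genes with a promoter entry that rose at 40 mJ/cm2 and 48 h, 3 had a response element. Of the 21 genes with an entry that did not pass the test there, 11 had one. A match is a run of letters and not a measured binding site. Parp14, Usp18, Oas2, Zbp1, Ifi27l2a, Dhx58, Mx1, Mx2 and Rtp4 are named only.

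**Figure D1:**
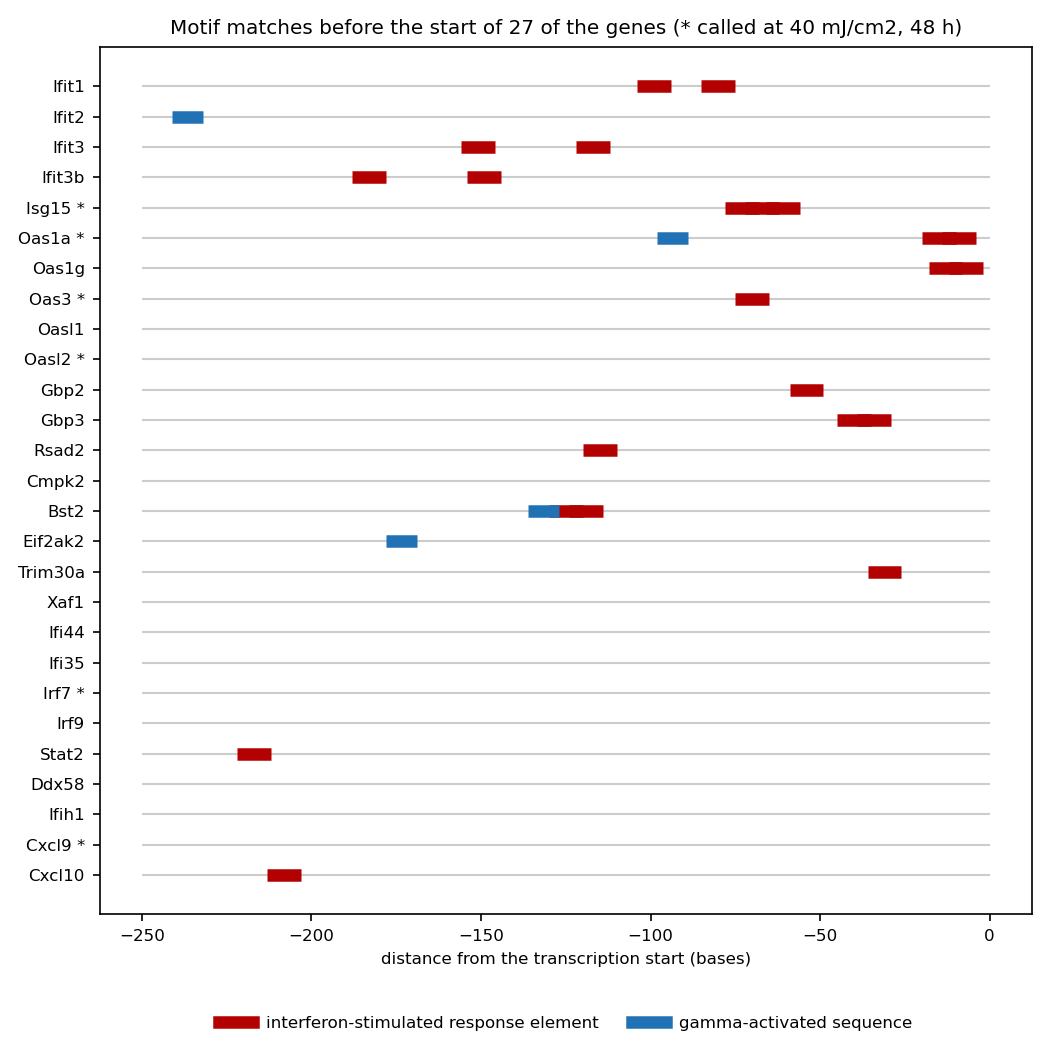
Motif matches in the 250 bases before the transcription start (x axis, distance in bases) of the 27 genes with a RefSeq promoter entry, 1 line a gene, with the response element in red and the gamma-activated sequence in blue. Matches of the response element lie on the lines of 14 genes, and of the 6 genes marked by an asterisk, which changed at 40 mJ/cm2 and 48 h, 3 carry one.

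Total counts per library ranged from 180004 to 64588924 with a median of 11079517. Only 2 libraries lay under 1000000 (10 mJ/cm2 replicate 5 at 6 h and 20 mJ/cm2 replicate 5 at 0 h), and the next lowest held 2685040. Titles of 71 libraries end in R1_001 and those of 74 in R1, which entered every test as a covariate. The skin markers Krt5 (406 to 5462 CPM), Krt10 (811 to 9935) and Col1a1 (3153 to 26180) were present in every library, as was the muscle gene Acta1 (156 to 11080). Levels given as CPM are counts for every 1000000 counts of a TMM-scaled library, unless a per-kilobase value is named, and differences are log2 fold changes, dose minus sham, with the standard error of the fit.

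Among the 24 comparisons of a dose with sham, interferon stimulated genes passed the edgeR quasi-likelihood test at an adjusted p under 0.05 in 1, the comparison of 40 mJ/cm2 with sham at 48 h. There 10 of the 36 rose (Dhx58, Oas3, Oas2, Mx1, Oasl2, Irf7, Rtp4, Oas1a, Zbp1 and Isg15) and 1 fell (Cxcl9). Over all 18677 genes tested in that comparison 7.73% changed, of which 3.97% rose and 3.76% fell. At an unadjusted p under 0.05 the count was 18 genes higher and 3 lower, where 3710 of all 18677 genes lay under that cut in either direction. Of the 36 fold changes 31 were positive. The median log2 fold change of the 36 was 0.57, beside -0.0066 over all genes tested. In 16 of the 36 genes every one of the 5 irradiated animals lay above every one of the 5 sham animals, and in 1 gene (Usp18) every one lay below, while 6.03% and 6.11% of all genes were separated in these directions. In whole skin, more cells of a type and more RNA per cell cannot be told apart, which holds for each value here.

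The nucleic acid sensors gave the smallest adjusted p. Dhx58 (ENSMUSG00000017830), the gene of the RNA-binding regulator LGP2, was at 5.56, 5.40, 5.03, 5.29 and 3.70 CPM in the 5 sham animals and at 10.8, 12.5, 18.6, 16.3 and 11.9 CPM in the 5 animals given 40 mJ/cm2. The lowest irradiated animal stood well above the highest sham animal, and sham values were close together apart from replicate 5. Dhx58 rose by 1.47 ± 0.22 (SE) on the log2 scale (edgeR adjusted p = 0.000181). Its deposited counts were not whole in 50.3% of libraries, so part of them was estimated. Zbp1, whose protein senses Z-form nucleic acid and can trigger necroptosis, was at 12.4, 5.80, 5.95, 10.4 and 4.81 CPM in sham animals and at 18.1, 12.7, 21.9, 17.0 and 15.7 CPM after 40 mJ/cm2. The lowest irradiated animal was barely above the highest sham animal. Zbp1 rose by 1.13 ± 0.31 (edgeR adjusted p = 0.0255). Ddx58, the gene of the RNA sensor RIG-I, separated the groups too (0.41 ± 0.15) but with an edgeR adjusted p of 0.117, and Ifih1, the gene of the sensor MDA5, gave 0.21 ± 0.20 with overlapping groups.

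Irf7, a transcription factor that amplifies type I interferon production, was at 21.4, 12.4, 15.9, 15.3 and 12.6 CPM in sham animals and at 36.9, 37.9, 45.2, 38.7 and 35.9 CPM after 40 mJ/cm2. All irradiated animals were within a narrow band above the sham animals. Irf7 rose by 1.33 ± 0.28 (edgeR adjusted p = 0.00357). The transcription factor genes Stat2 and Irf9, which act downstream of the type I receptor, gave smaller values, at 0.33 ± 0.13 for Stat2 (edgeR adjusted p = 0.142) and 0.18 ± 0.12 for Irf9 (0.474), and both genes had overlapping groups.

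The 2′-5′ oligoadenylate synthetase family, whose active members make the messenger that switches on RNase L, held 4 of the 10 genes that rose, out of 6 members, with a median log2 fold change of 1.15. Oas3 was at 2.12, 1.20, 0.992, 1.61 and 1.36 CPM in sham animals and at 5.40, 7.39, 6.79, 6.51 and 6.00 CPM after 40 mJ/cm2. No irradiated animal came near the sham range. Oas3 (ENSMUSG00000032661) rose by 2.19 ± 0.34 (edgeR adjusted p = 0.000259), the highest fold change among the 36. Oas2 was at 18.3, 13.9, 24.1, 18.0 and 14.6 CPM in sham animals and at 25.3, 33.9, 50.3, 38.5 and 40.6 CPM after irradiation. Irradiated replicate 1 stood close to the highest sham animal, and the other irradiated animals lay clearly above. Oas2 rose by 1.08 ± 0.19 (edgeR adjusted p = 0.000734). For Oasl2, a catalytically inactive relative, sham values were 24.1, 20.7, 20.8, 24.7 and 15.7 CPM and irradiated values 37.5, 45.1, 54.0, 43.2 and 39.6 CPM. The groups did not overlap, and Oasl2 rose by 1.04 ± 0.22 (edgeR adjusted p = 0.00342). Oas1a gave 10.3, 5.12, 9.21, 7.20 and 6.41 CPM in sham animals and 15.3, 15.5, 24.4, 17.1 and 16.2 CPM in irradiated ones. Here 4 irradiated animals lay close together and replicate 3 stood higher, with a rise of 1.22 ± 0.32 (edgeR adjusted p = 0.0184). The remaining members, Oas1g (1.66 ± 0.52, edgeR adjusted p = 0.0508) and Oasl1 (0.99 ± 0.34, 0.0818), had fold changes of like size and did not pass the test. Counts of Oas1a and Oas1g were not whole numbers in 97.2% of libraries, so their values were partly estimated and a split of reads between close copies is uncertain. The same holds for other members, among them Trim30a (99.3% of libraries not whole), Irf9 (94.5%), Gbp3 (91.7%), Ifit1 (75.2%), Gbp2 (67.6%), Ifi35 (60.7%), Cxcl10 (59.3%) and Usp18 (55.9%).

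Mx1, a dynamin-like GTPase that blocks influenza viruses, was at 3.18, 2.04, 3.54, 2.74 and 1.23 CPM in sham animals and at 7.79, 9.00, 7.45, 7.59 and 8.23 CPM after 40 mJ/cm2. The irradiated values lay close together and far above the sham values. Mx1 (ENSMUSG00000000386) rose by 1.69 ± 0.34 (edgeR adjusted p = 0.00258). Its paralog Mx2 also had every irradiated animal above every sham animal, at 0.55 ± 0.28, with an edgeR adjusted p of 0.272. Counts of Mx1 and Mx2 were each not whole in 62.1% of libraries, so a split of reads between these paralogs is uncertain.

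Isg15, a ubiquitin-like modifier, was at 6.62, 4.68, 5.74, 4.34 and 5.80 CPM in sham animals and at 11.8, 12.7, 13.8, 9.83 and 13.3 CPM after 40 mJ/cm2. The groups did not overlap, and the rise was 1.19 ± 0.36 (edgeR adjusted p = 0.0405). Usp18, the protease that removes ISG15 from its targets and damps the type I receptor, went the other way. Its sham values were 20.4, 12.8, 16.4, 19.0 and 20.6 CPM and its irradiated values 10.2, 9.32, 10.2, 12.7 and 8.77 CPM. The highest irradiated animal lay just under the lowest sham animal, and the difference of -0.79 ± 0.32 did not pass (edgeR adjusted p = 0.143).

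Of the 11 other antiviral genes only Rtp4, a chaperone-like gene that limits some flaviviruses, passed. It was at 11.9, 7.28, 8.22, 8.03 and 8.14 CPM in sham animals and at 15.3, 15.8, 23.4, 20.2 and 15.5 CPM after 40 mJ/cm2. Sham replicate 1 stood above the other sham animals and below every irradiated one. Rtp4 rose by 1.06 ± 0.26 (edgeR adjusted p = 0.0125). The other 10 ranged from 0.04 ± 0.17 for Cmpk2, a mitochondrial nucleotide kinase, to 0.70 ± 0.28 for Trim30a, a tripartite motif protein. Eif2ak2, the gene of the kinase PKR that halts translation, separated the groups at 0.59 ± 0.25 (edgeR adjusted p = 0.162), as did Trim30a (0.151). Rsad2, the gene of viperin, gave 0.58 ± 0.29 and the tetherin gene Bst2 gave 0.46 ± 0.29, both with overlapping groups. Parp14, Xaf1, Ifi44, Ifi35 and Ifi27l2a lay between 0.07 and 0.65.

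None of the 4 IFIT genes, whose proteins bind RNA with foreign ends, passed the edgeR test at 48 h, and their median log2 fold change was 0.50. Ifit3 was at 23.8, 20.9, 20.7, 21.5 and 16.8 CPM in sham animals and at 36.1, 35.2, 32.0, 28.7 and 25.3 CPM after 40 mJ/cm2. These groups did not overlap, and the difference was 0.60 ± 0.24 (edgeR adjusted p = 0.144). Ifit1 gave 0.66 ± 0.31, Ifit3b 0.39 ± 0.23 and Ifit2 0.19 ± 0.27, each with overlapping groups. Values of Ifit3 and Ifit3b were not whole in 98.6% of libraries, so their split is uncertain.

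Of the 2 chemokine genes 1 fell. Cxcl9, a chemokine that draws CXCR3-bearing T cells, was at 16.4, 4.00, 4.96, 13.8 and 6.66 CPM in sham animals and at 4.61, 2.83, 2.24, 1.42 and 2.42 CPM after 40 mJ/cm2. Sham replicates 1 and 4 were high, irradiated replicate 1 overlapped the sham range, and the other 4 irradiated animals lay under it. Cxcl9 fell by 1.78 ± 0.41 on the log2 scale (edgeR adjusted p = 0.00725). Its neighbour Cxcl10, a ligand of the same receptor, gave -0.16 ± 0.34 (edgeR adjusted p = 0.886). Neither of the 2 guanylate binding protein genes passed, with -0.65 ± 0.27 for Gbp2 (edgeR adjusted p = 0.169) and -0.05 ± 0.17 for Gbp3, with overlapping groups.

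**Figure D2:**
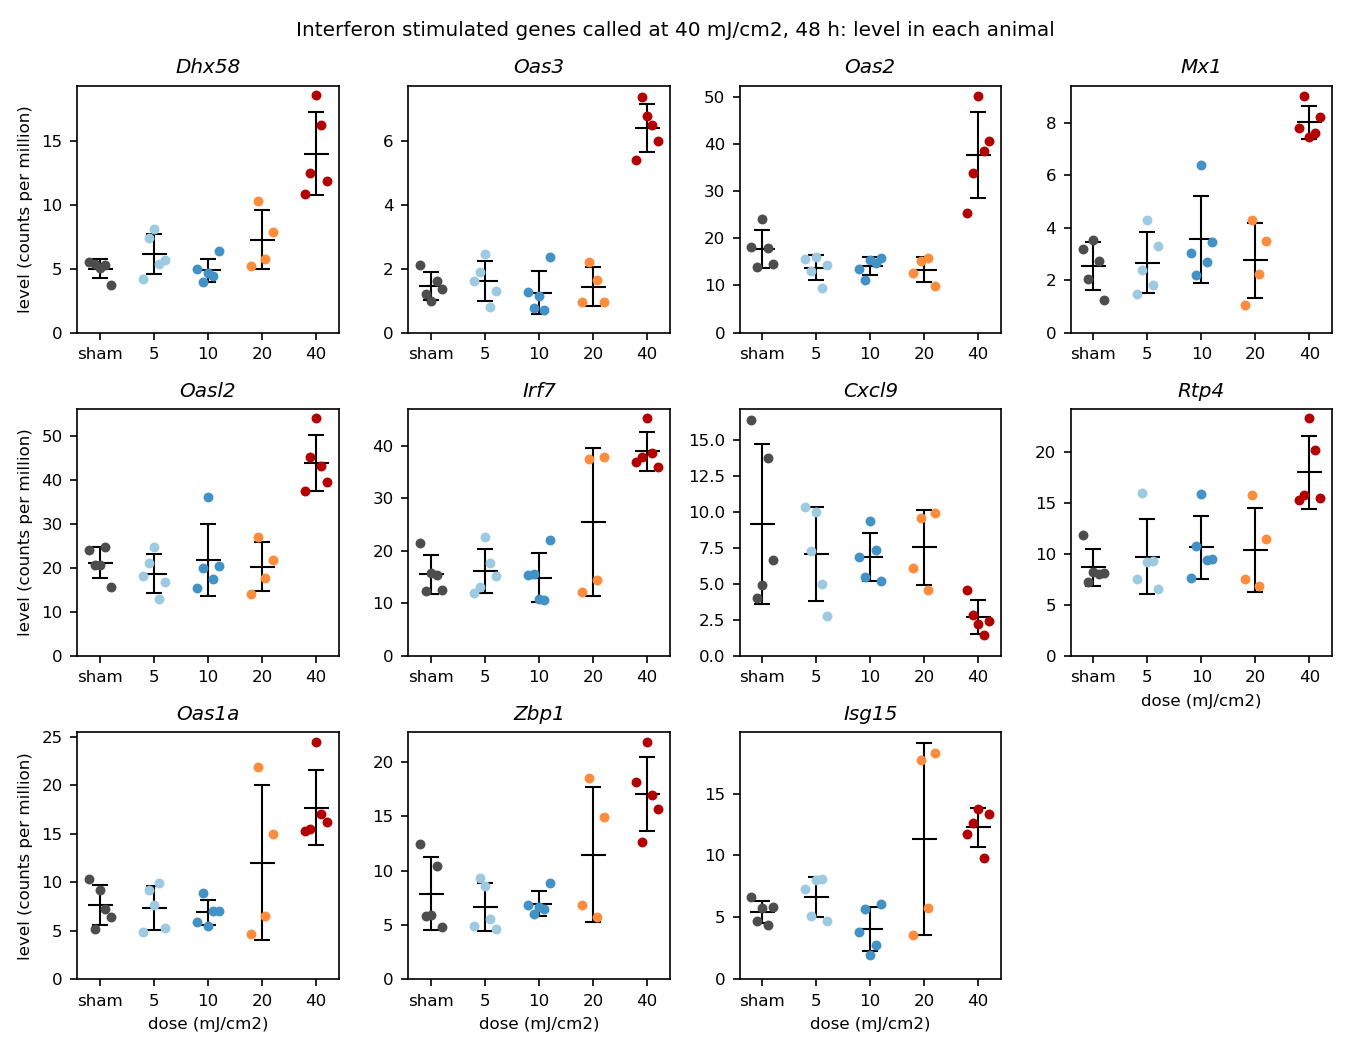
Levels (y axis, CPM, from 0) of the 11 genes that changed at 40 mJ/cm2 and 48 h, in each animal of the 5 dose groups at 48 h (x axis), with each group's mean and SD in black. Points at 40 mJ/cm2 lie above all sham points in 10 panels and low in the Cxcl9 panel, and Irf7, Isg15, Zbp1 and Oas1a show 2 of 4 animals high at 20 mJ/cm2.

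The count of 11 differed by library title. Within titles ending in R1 alone (3 animals a group) 7 of the genes passed. Within titles ending in R1_001 alone (2 animals a group, but replicate 1 only at 20 mJ/cm2) none did by edgeR. Oas3 gave 2.28 and 2.07, Mx1 1.60 and 1.75, and Cxcl9 -2.07 and -1.40 within these titles. Fitting only the 2 groups compared gave 19 genes (17 higher and 2 lower). With 1 library left out at a time, 8 of the 11 calls held in all 10 refits, and those of Oas1a, Zbp1 and Isg15 did not. The Oas1a call was lost without sham replicate 4 (edgeR adjusted p = 0.0549), sham replicate 5 (0.0609) or irradiated replicate 3 (0.0640). The Zbp1 call was lost without sham replicates 2, 3 or 5 or irradiated replicates 1 or 3 (edgeR adjusted p from 0.0519 to 0.0909). Isg15 passed in 1 of its 10 refits, without irradiated replicate 4, and its edgeR adjusted p was between 0.0534 and 0.114 in the other 9.

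Over the 4 irradiated groups at 48 h, without the sham animals, 8 of the 36 genes passed edgeR with a positive slope on log2 dose, as did 2.73% of all genes, and 33 of the 36 slopes were above 0. Per doubling of dose, Oas3 increased by 0.68 ± 0.14, Mx1 by 0.50 ± 0.12, Zbp1 by 0.48 ± 0.09, Oas2 by 0.46 ± 0.09 and Irf7 by 0.45 ± 0.09 on the log2 scale, with edgeR adjusted p from 0.00424 (Zbp1) to 0.0211 (Mx1). Oas1a (0.45), Dhx58 (0.41) and Oasl2 (0.38) were the others, and no slope was called negative, with 20 positive and 1 negative (Cxcl9, -0.38) at an unadjusted p under 0.05. The levels did not step up evenly with dose. At 5 mJ/cm2, Oas3 was at 1.62, 1.90, 2.46, 0.797 and 1.31 CPM, at 10 mJ/cm2 at 1.28, 0.773, 1.13, 0.724 and 2.38 CPM, and at 20 mJ/cm2 at 0.960, 2.20, 1.65 and 0.969 CPM. All 3 sets lay in or near the sham range of 0.992 to 2.12 CPM, well under the lowest value at 40 mJ/cm2 (5.40). No slope was called at 6, 24, 72 or 96 h, where edgeR called 1.42%, 0.953%, 0.6% and 0.0428% of all genes and 1, 4, 0 and 1 of the 36 had an unadjusted p under 0.05. For slopes, genes under the unadjusted cut were counted only among the 36.

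At 20 mJ/cm2 and 48 h the animals differed among themselves. Irf7 was at 12.2, 37.4, 14.5 and 37.9 CPM, Isg15 at 3.60, 17.7, 5.76 and 18.3 CPM, and Oas1a at 4.64, 21.9, 6.50 and 15.0 CPM. For these genes replicates 2 and 4 were near or above the levels of 40 mJ/cm2 while replicates 1 and 3 were among or under the sham animals. Oas3 and Oas2 did not show this split, with Oas2 at 12.6, 15.1, 15.9 and 9.88 CPM, in or under the sham range. Usp18 was at 11.7, 44.6, 10.2 and 18.2 CPM, so that replicate 2 alone stood above every sham animal. Replicate 2 is 1 of 5 libraries of the series whose titles begin with the word repeat, and replicate 4 is not. Without replicate 2 edgeR called 0 of the 36 at this dose and time, with 6 at an unadjusted p under 0.05, and without replicate 4 it called 0, with 3. In these refits genes under the unadjusted cut were counted only among the 36.

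None of the 36 genes passed edgeR at 20 mJ/cm2 and 48 h, where 0.482% of all genes did (0.428% higher and 0.0535% lower), and 6 were higher and 6 lower at an unadjusted p under 0.05. Under that unadjusted cut lay 3986 of all 18677 genes, in either direction. The smallest edgeR adjusted p was 0.0848, for Parp14 (-0.57 ± 0.17). Parp14, Gbp3 and Trim30a had every irradiated animal under every sham animal, which 2.13% of all genes did. DESeq2 called 1 of the 36 there, Parp14, lower. Without 20 mJ/cm2 replicate 1, edgeR called 4 (Isg15, Bst2 and Irf7 higher and Parp14 lower), and without replicate 3 it called Bst2.

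In the other 22 comparisons no interferon stimulated gene passed edgeR, and DESeq2 called none either. At 40 mJ/cm2, edgeR called 0% of all genes at 0 h, 4.89% at 6 h (2.14% higher and 2.75% lower), 2.92% at 24 h, 1.26% at 72 h and 0.118% at 96 h. The number of the 36 with an unadjusted p under 0.05 was 0 at 0, 6 and 24 h, 5 at 72 h and 2 at 96 h. Over all 18677 genes that number was 832, 3252 and 3066 at 0, 6 and 24 h, 2051 at 72 h and 885 at 96 h. The 5 of the 36 at 72 h were Oas1a (1.26 ± 0.54), Zbp1 (1.06 ± 0.45), Mx1 (1.02 ± 0.45), Oasl2 (0.76 ± 0.32) and Rtp4 (0.69 ± 0.33), with edgeR adjusted p from 0.348 to 0.445. Median log2 fold changes of the 36 were -0.092 at 0 h, 0.19 at 6 h, 0.079 at 24 h, 0.38 at 72 h and 0.33 at 96 h, beside 0.015, 0.045, 0.046, 0.030 and -0.023 over all genes. At 96 h 34 of the 36 values were positive, in genes measured in the same 4 irradiated animals. Replicate 1 was the highest of these animals for 34 of the 36 genes. Its mean log2 CPM over the 36 was 4.51, beside 3.34 to 3.76 in the other irradiated animals and 3.05 to 3.64 in sham animals. For 20 mJ/cm2 the shares of all genes called were 0%, 0.434%, 0.075% (0.0696% higher and 0.00535% lower), 0% and 0% at 0, 6, 24, 72 and 96 h, with 0, 2, 0, 0 and 1 of the 36 under an unadjusted p of 0.05. Over all genes the counts under that unadjusted cut were 1045, 1681, 1235, 206 and 790. No gene of the table passed edgeR at 5 or 10 mJ/cm2 at any time (0%), where at most 3 of the 36 had an unadjusted p under 0.05. At these 2 doses between 203 and 1779 of all genes lay under that cut.

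**Figure D3:**
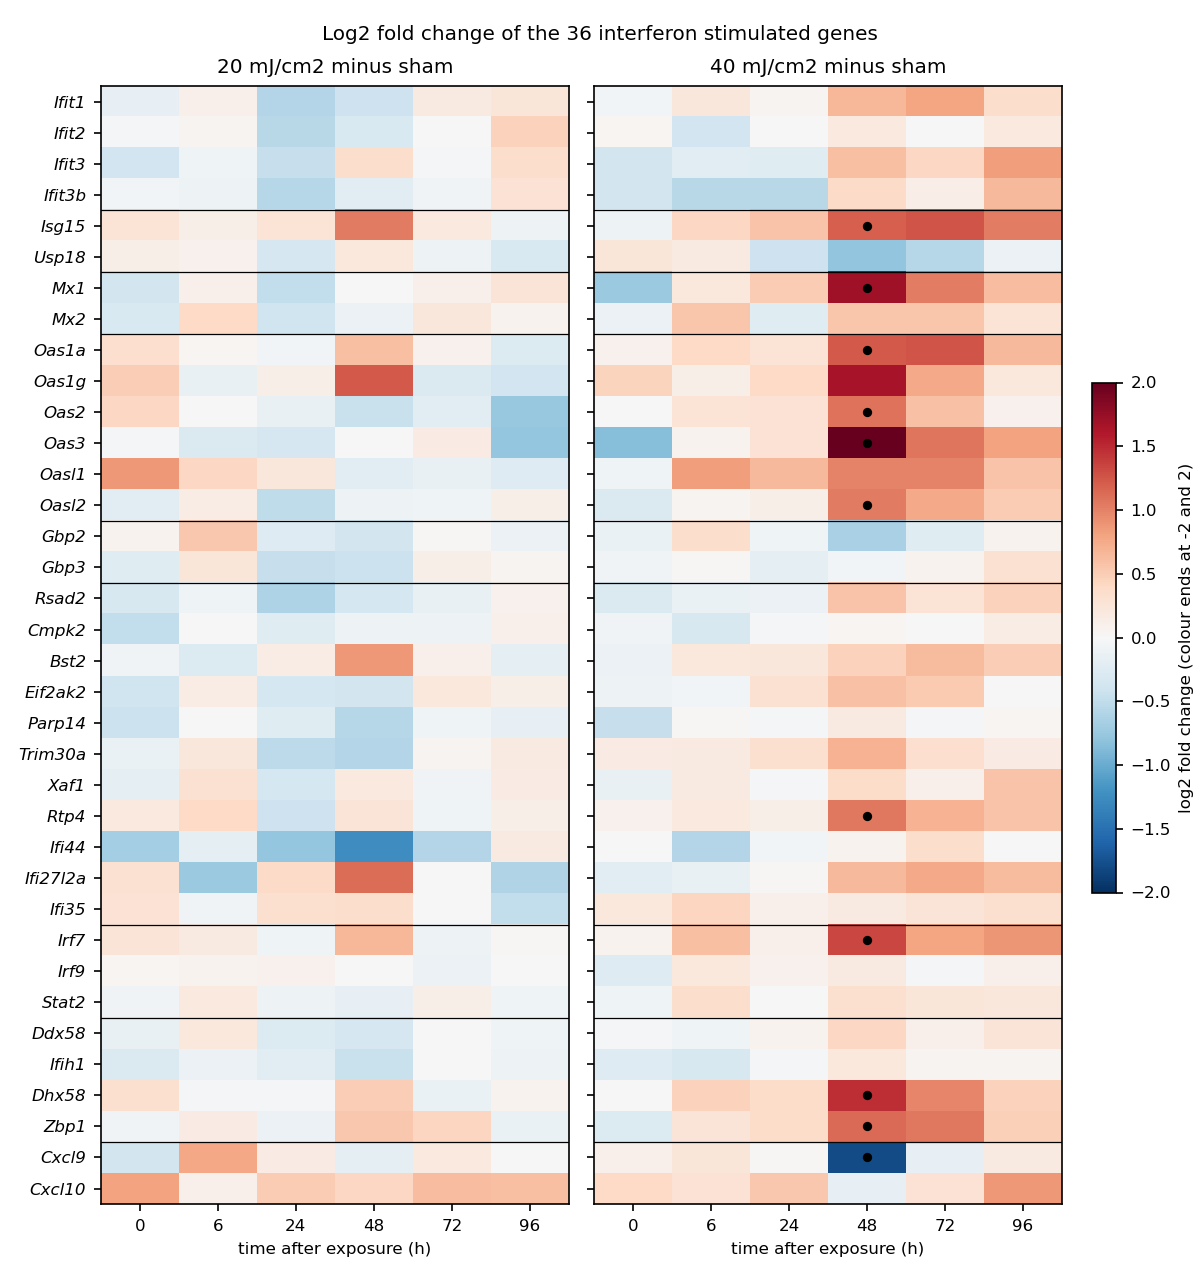
Log2 fold change against the sham animals of the same time (colour) of the 36 genes (lines, grouped by role) over the 6 times (x axis) at 20 and 40 mJ/cm2, with a black dot where the edgeR adjusted p was under 0.05. All 11 dots stand in the column of 40 mJ/cm2 at 48 h, where the colours run from -1.78 for Cxcl9 to 2.19 for Oas3.

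Animals within a group differed more at 24 h than at 48 h. Oas3 was at 8.52, 0.969, 5.43, 0.806 and 2.82 CPM in sham animals at 24 h and at 2.65, 6.85, 7.91, 0.350 and 4.73 CPM after 40 mJ/cm2. Both groups thus held animals at each end of the range. Averaged over the 36 genes, log2 CPM at 24 h ran from 3.54 to 4.42 in sham animals and from 3.26 to 4.68 at 40 mJ/cm2. At 48 h the same average ran from 3.26 to 3.72 in sham animals and from 3.88 to 4.09 at 40 mJ/cm2, a range of 0.21 between the irradiated animals. At 72 h and 40 mJ/cm2 it ran from 3.12 to 4.15 against 3.26 to 3.69 in sham animals, and replicate 2 of the irradiated animals was at 2.95 CPM for Isg15 while replicate 4 was at 17.9 CPM.

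**Figure D4:**
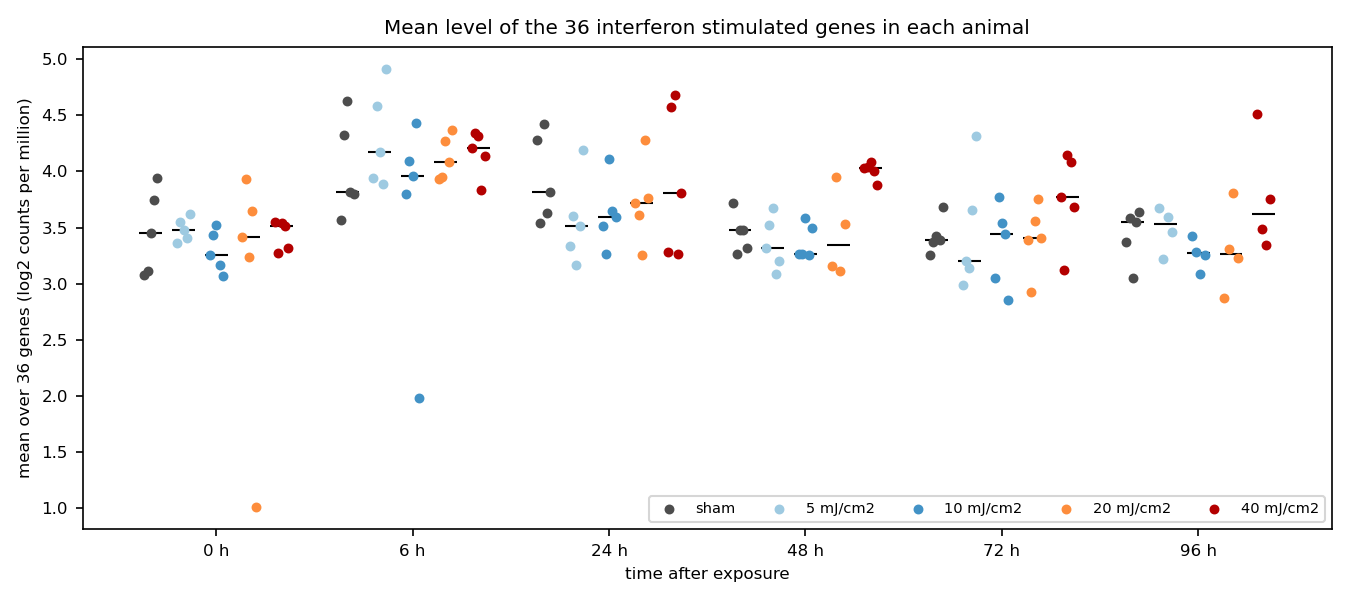
Mean log2 CPM over the 36 genes (y axis) in each of the 145 animals, by time (x axis) and dose (colour), with a black line at each group's median. The 5 animals at 40 mJ/cm2 and 48 h lie between 3.88 and 4.09, above the 5 sham animals of that time (3.26 to 3.72), and the 2 lowest points (1.01 and 1.98) are the libraries with under 1000000 counts.

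Whether the effect of 40 mJ/cm2 differed between 48 h and another time was tested directly in a fit of all 145 libraries. None of the 36 genes passed edgeR in the 4 tests, in which 0.985% (against 6 h), 0% (24 h), 0% (72 h) and 0.0696% (96 h) of all genes did. At an unadjusted p under 0.05 the counts were 9, 7, 1 and 3, taken only among the 36 genes. The median differences over the 36 genes were 0.59, 0.39, 0.14 and 0.16. Against 6 h, Oas3 differed by 2.13 ± 0.90 and Cxcl9 by -1.97 ± 0.61, the latter with the smallest edgeR adjusted p (0.0907).

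The sham animals themselves differed over time. In the 30 sham libraries, 5 of the 36 genes passed edgeR's test of any difference between the 6 times, and 4.29% of all genes did. An unadjusted p under 0.05 was found for 15 of the 36, and genes under that cut were counted only among the 36. The 5 genes that passed were Ifit3 (adjusted p = 0.000994), Rsad2 (0.00410), Ifit3b (0.00923), Ifit1 (0.0151) and Oasl2 (0.0161). Sham means were highest at 6 h for 18 of the 36 genes and at 24 h for 14, and lowest at 48 h for 14. Relative to 0 h the median log2 difference over the 36 was 0.48 at 6 h, 0.39 at 24 h, -0.22 at 48 h, -0.11 at 72 h and -0.16 at 96 h.

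Ifit3 was at 18.1, 23.3, 46.4, 36.5 and 25.6 CPM in sham animals at 0 h, at 32.8, 103, 116, 58.0 and 42.9 CPM at 6 h and at 23.8, 20.9, 20.7, 21.5 and 16.8 CPM at 48 h. Sham replicates 2 and 3 at 6 h stood far above the rest, and the 48 h animals were low and close together. Rsad2 behaved alike, with sham means of 15.0 ± 6.4 CPM (SD, n = 5) at 0 h, 28.8 ± 16.2 at 6 h and 6.72 ± 1.70 at 48 h.

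Set against all 30 sham animals rather than those of 48 h, the irradiated animals of 48 h stood less apart. In none of the 36 genes were all 5 animals at 40 mJ/cm2 and 48 h above all 30 sham animals, which 1.07% of all genes were. Oas1a came closest, with 1 sham animal (17.6 CPM) above its lowest irradiated value (15.3 CPM), followed by Irf7 and Dhx58 with 2 sham animals each and Isg15, Oas2 and Oas3 with 3 each. The highest sham level of Oas3, 8.52 CPM at 24 h, exceeded all 5 irradiated animals of 48 h. For Cxcl9, which fell, the sham median was 5.93 CPM and the irradiated values ran from 1.42 to 4.61 CPM. The lowest sham animal was at 2.75 CPM at 6 h, 4.00 CPM at 48 h and 3.82 CPM at 96 h, so the ranges overlapped.

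**Figure D5:**
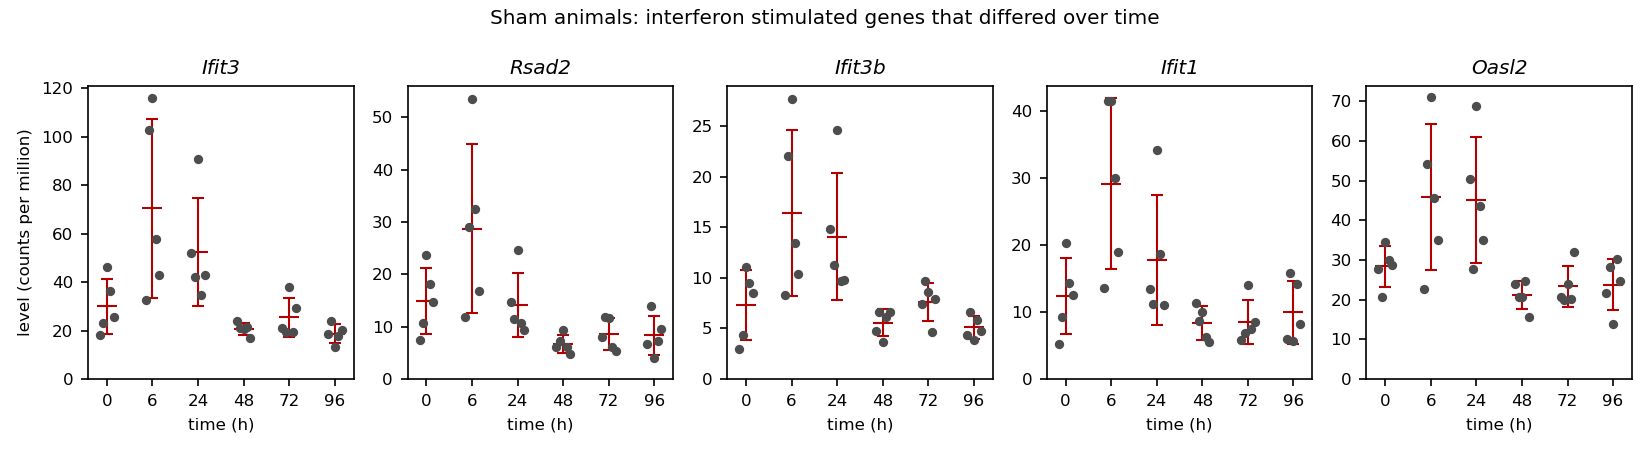
Levels (y axis, CPM, from 0) of the 5 genes that differed over time in sham animals, by time (x axis), with each animal as a point and the mean and SD of 5 animals in red. For Ifit3 the points at 6 h reach 116 CPM and those at 48 h lie between 16.8 and 23.8 CPM.

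Other genes of the pathway were taken from lists by role, and their counts refer to 40 mJ/cm2. At that dose 3.97% of all genes tested rose and 3.76% fell at 48 h. Of 12 interferon ligand genes only Ifnz had enough counts to be tested, with 639 counts over 94 of 145 libraries, and it did not pass at any time (48 h, -0.69 ± 0.99, edgeR adjusted p = 0.809). Ifnb1, the type I ligand of many cell types, had 10 counts in all, Ifnk, the keratinocyte type I ligand, 57, and Ifng, the type II ligand, 233. Ifnb1, Ifnk and Ifng fell under the filter on low counts, so a difference between groups was not tested for them. Of 9 receptor and kinase genes 1 rose at 48 h, Il10rb (0.52 ± 0.15), a chain of the type III receptor, while the type I receptor genes Ifnar1 (0.39 ± 0.15, edgeR adjusted p = 0.110) and Ifnar2 (0.48 ± 0.16, 0.0691) did not pass. Of 6 signalling factors outside the 36 genes 1 rose, Irf8 (0.76 ± 0.22), a factor of myeloid cells. Irf1 (-0.08 ± 0.22), itself interferon responsive, did not pass.

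Of 11 genes that act upstream of interferon 2 rose at 48 h and at 6 h, and these were Tmem173 (STING, 0.80 ± 0.20 at 48 h and 1.13 ± 0.28 at 6 h) and the adaptor Myd88 (0.82 ± 0.16 and 0.98 ± 0.27). Over all genes 2.14% rose at 6 h. Of 5 feedback inhibitors 1 rose at 48 h, Socs3 (1.22 ± 0.34), which also answers to other cytokines. Of 54 further interferon responsive genes 7 rose and none fell at 48 h, beside 3.97% and 3.76% of all genes, with a list median of 0.27. Ms4a4c rose by 2.77 ± 0.34, from 2.15 ± 0.65 to 15.3 ± 2.5 CPM (SD, n = 5 each). Ifitm1, a membrane protein that hinders viral entry, rose by 2.78 ± 0.46, and Slfn8 by 1.16 ± 0.25, Slfn2 by 1.05 ± 0.29, Lgals3bp by 0.94 ± 0.24, Oas1c by 0.80 ± 0.22 and Sp110 by 0.56 ± 0.17. Ms4a4c (1.84 ± 0.45) and Ifitm1 (2.92 ± 0.74) were also the 2 of this list that rose at 72 h, where 1.04% of all genes rose.

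Markers of other cell types moved at 40 mJ/cm2 and 48 h, where 3.97% of all genes rose and 3.76% fell. Their part in the result was not tested. Of 10 monocyte and macrophage markers 6 rose at 40 mJ/cm2 and 48 h, led by Fcgr1 (1.82 ± 0.31), itself interferon responsive, with Cd68 (1.38 ± 0.27) and Ly6c2 (1.30 ± 0.31). Their summed level was 802 to 1257 CPM in sham animals and 969 to 1793 CPM in irradiated ones. Of 8 neutrophil markers 6 rose, and the sum went from between 8.73 and 25.9 CPM to between 32.5 and 315 CPM. Of 13 T and NK cell markers 3 fell (Cd3e, at -1.23 ± 0.32, with Cd3g and Trdc) and none rose, with sums of 41.5 to 69.1 and 32.6 to 44.8 CPM. Gzmb, a cytotoxic cell gene of that list, gave 1.57 ± 0.51 (edgeR adjusted p = 0.0624).

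The plasmacytoid dendritic cell list gave no call in 7 genes, with Siglech, its most specific gene, at 0.960 to 2.56 CPM in sham animals and 0.579 to 1.63 CPM in irradiated ones. Of the Langerhans and dendritic cell list (7 genes, summing to 676 to 1193 and 540 to 1046 CPM) Cd207 fell (-1.87 ± 0.34) and Flt3 rose (0.78 ± 0.20). Of 8 keratinocyte markers 2 rose (Krt14, 1.70 ± 0.39, and Dsg3, 1.02 ± 0.28), and the sum was 6691 to 8574 CPM in sham and 9860 to 12180 CPM in irradiated animals. Of 10 skeletal muscle genes 6 fell, with sums of 35890 to 57040 and 16120 to 28760 CPM, and of 6 fibroblast genes Col1a1 and Col1a2 fell. No gene was called in the endothelial, adipocyte, melanocyte, hair shaft or mast cell lists, and no marker list had a gene at 0 in all 10 animals.

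Levels of different genes can be compared only per length. On CPM per kilobase of exon, Ifi27l2a had the highest median over the 145 libraries (96.4), followed by Bst2 (21.9), Gbp2 (19.5), Ifit3 (15.4) and Ifi35 (13.5). At the other end were Oas3 (0.227), Ifi44 (0.442), Oasl1 (0.657), Mx2 (0.858) and Oas1g (0.958). Ranges over libraries overlapped between every pair of neighbours in this order, for example 4.49 to 71.1 for Bst2 and 7.68 to 56.3 for Gbp2. Oas3, which had the highest fold change at 48 h, was thus the lowest of the 36 in level.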

How the data were processed

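RNA-seq libraries of dorsal mouse skin were sequenced as single 75-base reads from a stranded poly(A) kit, per the labels' protocols. Tools listed without their roles in the submitters' processing notes include STAR 2.7.10a and fastp 0.23.0, and the build listed is GRCm39. The authors deposited expected counts per gene, which are estimated counts, 12.57% of them not whole. No source used here gives the counting tool or its use of strand. Counts were rounded to whole numbers, and counts of identifiers without a symbol (0.0906%) stayed in. Symbols (for 52083 of 55416 identifiers) came from a table of gene names, exon lengths from GENCODE (GRCm38) and promoters from RefSeq (GRCm38.p6).

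Tests used edgeR 4.0.16 in R 4.3.3 (filterByExpr over 30 groups, TMM, two-sided quasi-likelihood F tests, Benjamini-Hochberg over 18677 genes, threshold 0.05). Standard errors are the fold change over the square root of F. Each time was fitted alone with its 5 dose groups and the title ending. Slopes used the 4 irradiated groups, sham over time used 30 libraries, and differences between times used all 145. DESeq2 1.42.0, other scaling, no filter, other designs and leaving out libraries were alternatives. Library totals (180004 to 64588924 counts) set the precision of low genes. Libraries of a group are separate animals, and all 280 pairs within groups differed beyond counting error (lowest chi-square per degree of freedom 7.61). The fits were tested on simulated data. Log2 CPM used a prior count of 2. The genes and lists were chosen with earlier results of these data known. Values per animal were given for the genes called in any comparison by smallest adjusted p, and for a few others chosen after their values were seen.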

Additional observations from a re-analysis of the deposited data

Results flagged for a closer look

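In 50 sets of values the highest or lowest library was compared with the spread of its group by Dixon's ratio. The sets were the mean of the 36 genes in each of the 30 groups, and 10 called genes. These genes were taken in sham and 40 mJ/cm2 animals at 48 h, so the same animals recur and the sets are not independent. In 5 sets a library stood apart, where chance marks about 1 in 20 independent sets. Averaged over the 36 genes, log2 CPM was 1.01 in 20 mJ/cm2 replicate 5 at 0 h, with the next lowest animal at 3.24, and 1.98 in 10 mJ/cm2 replicate 5 at 6 h, with the next at 3.80. These are the 2 libraries under 1000000 counts. Neither enters a comparison in which an interferon stimulated gene passed. At 48 h, log2 CPM of Dhx58 was lowest in sham replicate 5 (1.94, next 2.37), that of Rtp4 was highest in sham replicate 1 (3.59, next 3.06) and that of Oas1a was highest in 40 mJ/cm2 replicate 3 (4.62, next 4.11). Without these libraries the log2 fold change was 1.36 for Dhx58, 1.20 for Rtp4 and 1.11 for Oas1a, and only the Oas1a call was lost (edgeR adjusted p = 0.0640).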

How the results depend on the processing

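Of 323 alternatives for the 34 counts of genes passing a test, 316 stayed within 1.5 times the count reported. Most of these counts were 0, and 0 against 0 was scored as unchanged. No gene of the table passed at 5 or 10 mJ/cm2 in the reported fits, so agreement there was nearly fixed in advance. At 40 mJ/cm2 and 48 h the reported 11 became 19 with only the 2 groups compared, 7 with titles ending in R1 and 0 with titles ending in R1_001. The other settings there gave 14 (DESeq2), 11 (size factors), 12 (no filter), 11 (no title ending) and 9 (all libraries in 1 fit). Leaving out the libraries titled as repeats gave 13, and at 48 h these were at 5 and 20 mJ/cm2 only. At 20 mJ/cm2 and 48 h the reported 0 became 1 with DESeq2 and 3 without the filter. Leaving out 1 library at a time gave 8 to 11 at 40 mJ/cm2 and 0 to 4 at 20 mJ/cm2, both at 48 h (4 without 20 mJ/cm2 replicate 1 and 1 without replicate 3), and 0 at the other times of both doses. Of 220 alternatives for the fold changes of the 11 genes, none reversed and 35 lost the call. The causes were not tested. Leaving out single libraries at 5 and 10 mJ/cm2 was not run, and fold changes under the alternatives were recomputed at 48 h only. No paired analysis was possible because each animal has its own number and replicate numbers follow the order of deposit. Of the 12 ligand genes 11 had too few counts over all libraries to be tested, and the effect of depth on the other values was tested only by leaving out libraries under 1000000 counts.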
